A study of Homo sapiens with 12 samples.

Results

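The genes described here are 30 genes of sterol and fatty acid synthesis, taken by symbol from the rows that all 12 libraries hold. They are 30 of 17096 genes listed. The rule that picks them uses symbols and no measured value, but the members were chosen with earlier results of these data known. In all, 18 encode enzymes of the sterol branch, 8 encode enzymes of the fatty acid branch, and 4 encode the regulators SREBF1, SREBF2 and INSIG1 and the sterol carrier STARD4. All 30 passed the filter on low values, at least 1 FPKM (fragments per kilobase of transcript, scaled to library size) in at least 2 libraries, which kept 16295 genes for testing. The RNA came from H7, a human embryonic stem cell line, carried through directed differentiation into cardiomyocytes. Cells labelled cardiac mesoderm were sampled at day 3, and cells labelled cardiomyocytes at days 7 and 15. At each day 2 libraries have the genotype wild type and 2 the genotype E2A-/-, which gives 6 groups of 2. All groups share the H7 background, and the labels name no clone, no position of the edit, no added agent and no culture of origin for a replicate. The p-values therefore measure only the spread between these libraries, which may be technical.

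Cells build sterols and fatty acids from the same starting unit, acetyl-CoA. The sterol branch runs through mevalonate, farnesyl diphosphate, squalene and lanosterol to cholesterol, and the fatty acid branch runs through malonyl-CoA to palmitate, which is then lengthened and desaturated. Both branches are controlled by SREBP transcription factors, which are made as precursors in the membrane of the endoplasmic reticulum. When membrane sterol is scarce, SCAP escorts the precursors to the Golgi, where proteases release the active factor, and INSIG proteins hold the complex back when sterol is plentiful. The product of SREBF2 is best known for driving sterol genes and that of SREBF1 for driving fatty acid genes. Dividing cells draw on both branches for new membrane, whereas mature heart muscle is known for burning fatty acids as fuel.

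The mRNA of TCF3, the current name of E2A, which encodes a helix-loop-helix transcription factor, did not show a loss in the libraries labelled E2A-/-. It stood at 179.5 and 149 FPKM in wild type and 146 and 148 FPKM in labelled knockout at day 3, at 135 and 138 against 179.9 and 172 FPKM at day 7, and at 74.4 and 98.2 against 169.7 and 108 FPKM at day 15. Its log2 changes were -0.15 (adjusted p = 0.618), 0.36 (adjusted p = 0.159) and 0.66 (adjusted p = 0.0234), so the groups are called libraries labelled knockout and every direction between genotypes rests on the labels. The call at day 15 ended without wild-type replicate 1 (0.46) or labelled knockout replicate 1 (0.34). Summed FPKM ran from 577716 to 734958 per library, replicates correlated across genes at r of 0.973 to 0.990, and mitochondrial transcripts held 8.14% to 26.2% of the sum. The 8 cardiomyocyte markers summed to 4.67 to 7.96 FPKM in the 4 libraries of day 3. At day 7 they summed to 6548 and 6562 FPKM in wild type and 1238 and 1121 in labelled knockout. The day-15 sums were 9289 and 10185 against 3970.4 and 3231 FPKM. In labelled knockout 1 of these 8 markers was called lower on day 3 and all 8 on day 7. By day 15 the calls were 4 lower and 1 higher. MYL7 was then the largest part of the sums, with 5961 and 6584 FPKM in wild type against 1350 and 1204 FPKM. MYH6 went the other way, with 632 and 702 against 959 and 786 FPKM. Of the 8 cardiac mesoderm markers 6 were lower in labelled knockout at day 3, with sums of 512 and 470.3 against 1480.3 and 1478 FPKM. Of 7 measured neural markers 5 were higher at each day, and 2 were lower at day 3. The 8 cell cycle markers summed to 402 and 410.1 FPKM in wild type against 506 and 433 at day 3, 314 and 298 against 499 and 509 at day 7, and 222 and 223 against 258 and 241 at day 15, with 3, 6 and 3 of 8 higher and 0, 0 and 1 lower. Higher and lower counts at days 3, 7 and 15 were 0 and 3 at each day of 4 measured endoderm and liver markers, 0 and 4, 0 and 5 and 1 and 2 of 6 epithelial markers, 0 and 3, 0 and 4 and 0 and 3 of 4 measured fibroblast and smooth muscle markers, and 0 and 0, 0 and 4 and 2 and 1 of 5 endothelial markers. No gene listed stands at 0 in any library, so this says nothing particular about the markers. Only 4 of 8 endoderm and liver, 7 of 8 neural and 4 of 7 fibroblast and smooth muscle markers chosen were measured. The part of cell makeup and cell division in the results below was not tested, and in bulk RNA fewer cells of a type and less RNA per cell cannot be told apart.

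The stretches before the start sites of these genes are given first. The choice of members used no sequence, but it took genes known for control by SREBP. Boxes of SREBP partners are therefore not independent of that choice. The windows are the 250 bases before each annotated start, from RefSeq on GRCh38.p14, with 26 of 30 members matched by symbol (FDFT1, SQLE, ACAT2 and FASN had no entry). Some genes have more than 1 window. A gene counted as holding a box when any of its windows did, among members and all genes alike. CCAAT on either strand, the box bound by NF-Y, a partner of SREBP, occurred in 20 of 26 members (76.9%), in 13 of 15 of the sterol branch, 4 of 7 of the fatty acid branch and 3 of 4 regulators. Among all 27305 genes with an entry, 37.0% held it. That set is larger than the 16295 genes tested, so it also holds genes not tested here, whereas all members were tested. GGGCGG, the box bound by SP1, another partner, occurred in 25 of 26 members (96.2%) and in 46.2% of all genes. CANCTG, a form of the E-box that E proteins bind, occurred in 12 of 26 members (46.2%) and in 47.5% of all genes. TCACNCCAC, a sterol element form, occurred in 1 member, SREBF2, and in 1.09% of all genes. These are matches of letters within a window, and no binding was measured. Members that were not lower at day 3 held CCAAT boxes too, among them MVK with 5, MVD with 3, HMGCS1 and ACLY with 2 each, and ACACA, which was higher, with 2. These are the boxes of the window with the most, and other windows held 0 and 1 for ACACA and 0 for HMGCS1. Shown 5′ to 3′ on the gene's own strand, without annotated exon bases, are 4 members that were lower at day 3 in labelled knockout and, for contrast, MVD, which did not pass at that day, all with at least 2 such boxes, with CCAAT or its reverse ATTGG in capitals. NSDHL (chrX:152830813-152830966, plus strand) holds 4 boxes, of which an adjoining pair shares bases as CCAATTGG, the bases shown for MSMO1 (chr4:165327419-165327622, plus strand) hold 3, and DHCR7 (chr11:71448436-71448643, minus strand) and SCD (chr10:100346983-100347123, plus strand) hold 2 each, and MVD (chr16:88663162-88663297, minus strand) holds 3, the window of DHCR7 lying inside the longer gene span of GENCODE release 29. For SREBF2 (chr22:41832962-41832991, plus strand) 30 bases around the sterol element are shown, with that element in capitals, 133 bases before the start.
NSDHL: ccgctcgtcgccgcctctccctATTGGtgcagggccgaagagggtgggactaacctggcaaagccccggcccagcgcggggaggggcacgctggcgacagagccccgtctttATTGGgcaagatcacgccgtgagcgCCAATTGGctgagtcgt
MSMO1: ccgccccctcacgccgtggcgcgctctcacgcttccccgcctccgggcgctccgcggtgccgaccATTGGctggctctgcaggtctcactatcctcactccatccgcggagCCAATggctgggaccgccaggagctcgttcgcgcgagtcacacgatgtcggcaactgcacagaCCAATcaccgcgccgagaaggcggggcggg
DHCR7: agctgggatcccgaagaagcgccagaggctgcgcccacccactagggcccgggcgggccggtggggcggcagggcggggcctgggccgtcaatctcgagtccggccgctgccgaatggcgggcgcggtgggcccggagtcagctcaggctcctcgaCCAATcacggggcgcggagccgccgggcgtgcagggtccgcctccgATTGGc
SCD: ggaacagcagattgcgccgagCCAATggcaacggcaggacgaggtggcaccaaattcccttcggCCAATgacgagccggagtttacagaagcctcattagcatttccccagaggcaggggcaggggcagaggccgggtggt
MVD: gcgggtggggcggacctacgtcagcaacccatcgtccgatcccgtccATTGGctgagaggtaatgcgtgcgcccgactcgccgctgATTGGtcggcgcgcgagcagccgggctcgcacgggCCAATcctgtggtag
SREBF2: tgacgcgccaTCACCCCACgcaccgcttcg

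At day 3 the question was how far lipid synthesis genes differ between the genotypes in cells labelled cardiac mesoderm. Both branches held more genes that were lower than higher in the libraries labelled knockout. In the sterol branch 11 of 18 genes were lower and 0 higher, with a median log2 change of -0.62, as labelled knockout minus wild type on log2(FPKM + 1), a scale that understates low genes. In the fatty acid branch 3 of 8 were lower and 1 higher, with a median of -0.45, and of the regulators and carrier 2 of 4 were lower. Over all genes tested 14.1% were called lower and 9.51% higher (limma, adjusted p under 0.05), and the median was -0.01. At an unadjusted p under 0.05, limma had 14 of 18 sterol genes lower and 0 higher. The 18 sterol genes together summed to 1087 and 1058 FPKM in wild type and 683 and 682 FPKM in labelled knockout. The 8 fatty acid genes summed to 1117 and 1138 against 845 and 761 FPKM, so for both branches the groups did not overlap.

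Among the early enzymes, ACAT2 (GRCh38 chromosome 6, 159760328 to 159779055, plus strand), which joins acetyl-CoA units, stood at 41.7 and 37.9 FPKM in wild type and 19.5 and 24.2 FPKM in labelled knockout. Both labelled knockout libraries lay below both wild-type libraries, with a log2 change of -0.84 (SE 0.16, adjusted p = 0.00465). FDPS, farnesyl diphosphate synthase, the branch point between sterols and other isoprenoids, stood at 117 and 122 against 71.8 and 78.5 FPKM, a change of -0.66 (SE 0.11, adjusted p = 0.00176). IDI1, the isomerase that supplies its substrates, was lower by a smaller margin, with a change of -0.52 (adjusted p = 0.0263). The mevalonate steps before it did not pass: HMGCS1, which makes HMG-CoA, had -0.35 (adjusted p = 0.103), the kinase MVK -0.47 (adjusted p = 0.16), the kinase PMVK 0.09 (adjusted p = 0.739) and the decarboxylase MVD -0.28 (adjusted p = 0.142). PMVK was the member of this stretch whose groups overlapped.

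From squalene onward 8 of 11 genes were lower. FDFT1 (GRCh38 chromosome 8, 11795573 to 11839309, plus strand), squalene synthase, the first step committed to sterols, stood at 201 and 224 against 135 and 121 FPKM, a change of -0.73 (SE 0.14, adjusted p = 0.00512). SQLE, squalene epoxidase, stood at 62.5 and 64.7 against 41.6 and 42.6 FPKM (-0.58, adjusted p = 0.00324). DHCR7 (GRCh38 chromosome 11, 71428193 to 71452868, minus strand), the reductase of the last step to cholesterol, stood at 112 and 101 against 55.2 and 45.8 FPKM. Its change of -1.07 (SE 0.16, adjusted p = 0.00115) was the lowest of the 30 members at that day. NSDHL (28.8 and 26.8 against 16.6 and 15.2 FPKM) and HSD17B7 (14.2 and 14.8 against 8.87 and 8.60 FPKM), which act in removal of methyl groups from lanosterol, changed by -0.77 (SE 0.15) and -0.67 (SE 0.14). MSMO1, the oxygenase of the same steps, changed by -0.66 (SE 0.15), CYP51A1, lanosterol demethylase, by -0.46 (SE 0.11), and EBP, a sterol isomerase, by -0.77 (SE 0.16). All these had groups that did not overlap. With 2 libraries a group such separation is a weak criterion, and its share over all genes was not computed, here or below. LSS, lanosterol synthase (-0.48, adjusted p = 0.0981), TM7SF2, a sterol reductase (-0.14, adjusted p = 0.531), and SC5D, a sterol desaturase (-0.69, adjusted p = 0.0512), did not pass. The 2 wild-type values of SC5D lay far apart, at 100.2 and 56.8 FPKM, and it passed without the lower of these libraries, wild-type replicate 2 (-1.10), or without labelled knockout replicate 2 (-0.92).

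In the fatty acid branch the desaturases were lower and the first committed enzyme was higher. FADS2, which begins the making of polyunsaturated fatty acids, stood at 179 and 201 FPKM in wild type and 96.4 and 104 FPKM in labelled knockout, a change of -0.92 (SE 0.11, adjusted p = 0.000408). FADS1, the next desaturase on that path, stood at 117 and 121 against 80.2 and 77.7 FPKM (-0.59, adjusted p = 0.00514), and SCD, which makes monounsaturated fatty acids, at 319 and 319.5 against 240.1 and 214 FPKM (-0.49, adjusted p = 0.014). The labelled knockout values of all these desaturases lay below the wild-type values. FADS1 and FADS2 overlap on chromosome 11 on opposite strands, and the strand setting of the counting is not given in the sources used here. ACACA (GRCh38 chromosome 17, 37084988 to 37406818, minus strand), acetyl-CoA carboxylase, which makes malonyl-CoA, went the other way, at 21.2 and 19.6 FPKM in wild type against 30.7 and 29.2 FPKM in labelled knockout, a change of 0.53 (SE 0.13, adjusted p = 0.0135). ACLY, which makes acetyl-CoA from citrate (-0.62, adjusted p = 0.0621), ACSS2, which makes it from acetate (-0.32, adjusted p = 0.234), FASN, fatty acid synthase (-0.19, adjusted p = 0.605), and ELOVL6, an elongase of long saturated chains (-0.42, adjusted p = 0.435), did not pass.

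Of the regulators, SREBF2 stood at 116 and 121 FPKM in wild type and 89.6 and 86.7 FPKM in labelled knockout at day 3 (-0.42, adjusted p = 0.0281). STARD4, a soluble protein that moves cholesterol between membranes, stood at 17.3 and 14.2 against 8.33 and 9.04 FPKM (-0.78, adjusted p = 0.0239). SREBF1 (-0.51, adjusted p = 0.293) and INSIG1 (-0.35, adjusted p = 0.187) did not pass. The calls of ACAT2, FDPS, FDFT1, SQLE, NSDHL, DHCR7, FADS1 and FADS2, 8 of 17 members called, held under every alternative run, leaving out each library included. IDI1, SREBF2 and STARD4 lost theirs without each of that day's 4 libraries in turn (-0.42 to -0.61, -0.39 to -0.45 and -0.65 to -0.92), SCD without either wild-type library (-0.49 each) or labelled knockout replicate 2 (-0.41), and ACACA without either wild-type library (0.48 and 0.59) or labelled knockout replicate 1 (0.50). CYP51A1 (-0.40 and -0.42) and MSMO1 (-0.53 and -0.62) lost theirs without replicate 2 of either genotype, HSD17B7 without wild-type replicate 2 (-0.65) and EBP without labelled knockout replicate 1 (-0.62). Scaled to the sum of nuclear genes, the median of all genes moved to 0.12 and the share of calls that were higher from 40.3% to 62.3%. The sterol median was then -0.45 with 9 lower, the fatty acid median -0.28 with 3 lower, and the calls of IDI1 (-0.34), CYP51A1 (-0.29), SREBF2 (-0.24) and STARD4 (-0.62) ended.

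**Figure D1:**
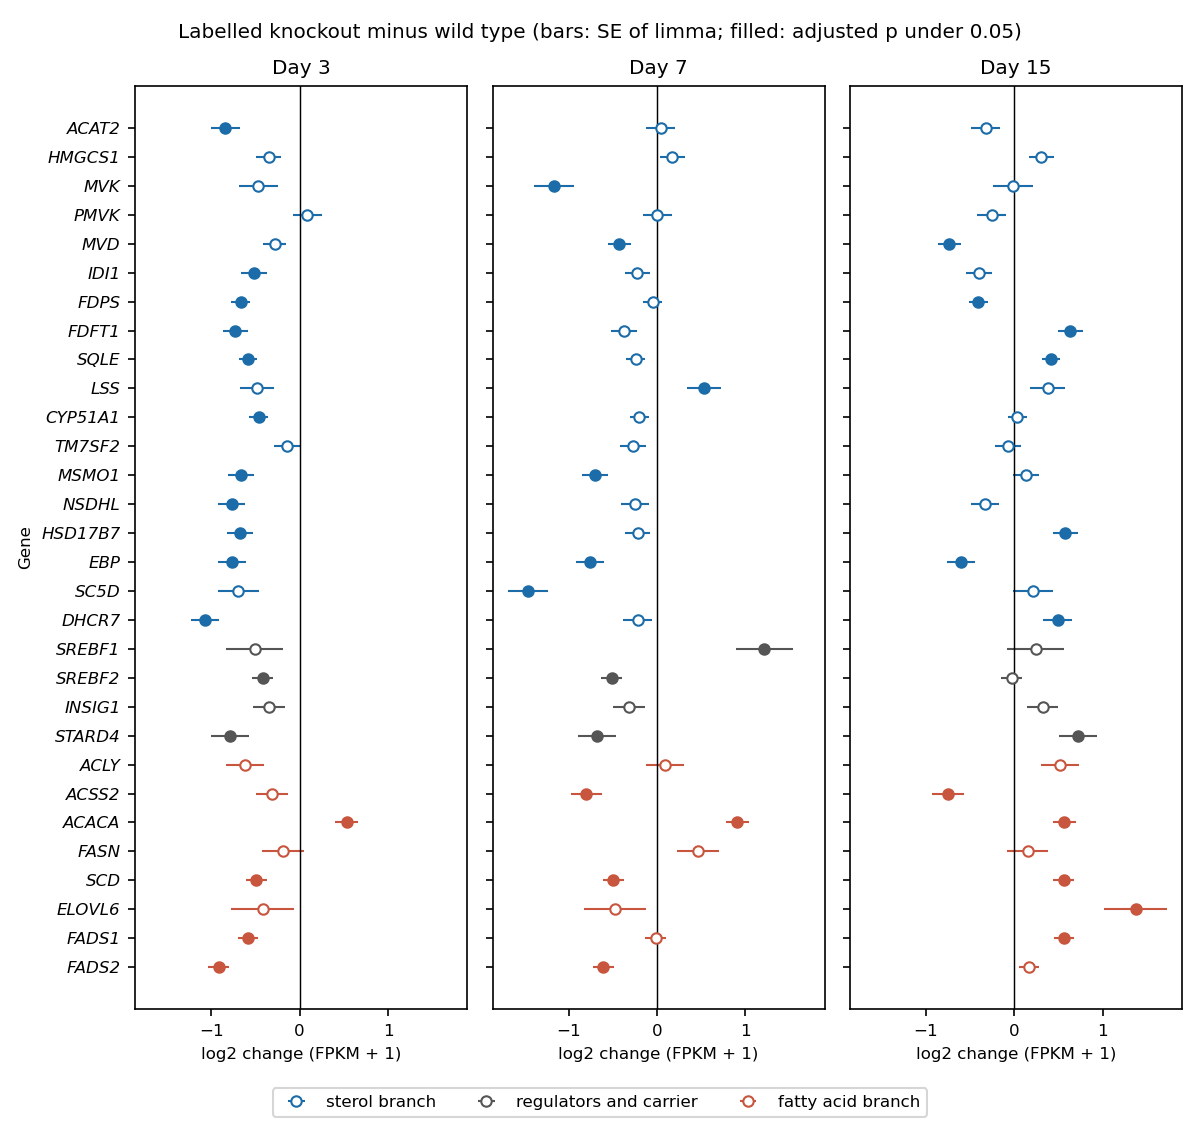
Log2 change of FPKM + 1 (labelled knockout minus wild type) on the horizontal axis for each of 30 genes at days 3, 7 and 15; points are limma estimates from 2 libraries a group, bars are SE, and filled points passed an adjusted p of 0.05. At day 3 most points lie left of 0 with ACACA to the right, and at day 15 DHCR7, FDFT1, SCD and ELOVL6 are among the filled points to the right of 0.

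At day 7, when the labels call the cells cardiomyocytes, 6 of 18 sterol genes passed, against 11 at day 3. Of these 5 were lower and 1, LSS, higher, with a median log2 change of -0.23. In the fatty acid branch 3 of 8 were lower and 1 higher, with a median of -0.25 that turned to 0.03 without labelled knockout replicate 2, and of the regulators and carrier 2 of 4 were lower and 1 higher. Over all genes tested 19.9% were called lower and 22.1% higher, with a median of 0.06. The lower calls of the sterol branch were thus near the background in share, and its higher calls below it. Summed over the branch, the sterol genes stood at 919 and 909 FPKM in wild type and 683 and 668 FPKM in labelled knockout. The fatty acid genes summed to 810.2 and 801 against 739 and 659.5 FPKM.

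SC5D (GRCh38 chromosome 11, 121292453 to 121308694, plus strand), which introduces a double bond late in the sterol path, had the largest fall of the 30 members in this comparison. It stood at 172 and 156 FPKM in wild type and 62.4 and 55.8 FPKM in labelled knockout, which is a log2 difference of -1.46 (SE 0.23, adjusted p = 0.000663). MVK, mevalonate kinase, stood at 24.1 and 24.98 against 12.9 and 8.32 FPKM, a change of -1.16 (SE 0.22, adjusted p = 0.00216). In both genes the wild-type libraries of day 7 were the highest of all 12. EBP stood at 60.4 and 63.3 against 31.9 and 40.9 FPKM (-0.76, adjusted p = 0.00337) and MSMO1 at 60.3 and 55.5 against 33.5 and 37.1 FPKM (-0.70, adjusted p = 0.00394). MVD, which makes isopentenyl diphosphate, was lower too (-0.43, adjusted p = 0.022). LSS, which closes the sterol rings, was higher, at 23.3 and 24.6 against 36.2 and 33.7 FPKM (0.53, adjusted p = 0.0486). ACAT2 (0.04), HMGCS1 (0.17), PMVK (0.00) and FDPS (-0.05) had groups that overlapped, and the changes of IDI1, FDFT1, SQLE, CYP51A1, TM7SF2, NSDHL, HSD17B7 and DHCR7, from -0.38 to -0.20, did not pass.

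In the fatty acid branch ACACA stood at 15.5 and 13.9 FPKM in wild type and 29.3 and 27.6 FPKM in labelled knockout, which is a log2 difference of 0.91 (SE 0.13, adjusted p = 0.00036). That is again higher in labelled knockout, with no overlap. ACSS2, the acetate enzyme, stood at 22.3 and 23.1 against 14.5 and 10.99 FPKM (-0.80, adjusted p = 0.00509), FADS2 at 166 and 181 against 110.2 and 117 FPKM (-0.61, adjusted p = 0.00196) and SCD at 261 and 248 against 195 and 167 FPKM (-0.49, adjusted p = 0.00777). FASN was at 94.6 and 97.03 against 133 and 132 FPKM, without overlap, and did not pass (0.46, adjusted p = 0.138). ACLY, FADS1 and ELOVL6 had overlapping groups, and the labelled knockout values of ELOVL6 lay far apart, at 94.9 and 38.1 FPKM. SREBF1 and SREBF2 moved in opposite directions. SREBF1 (GRCh38 chromosome 17, 17810399 to 17837002, minus strand) stood at 13.3 and 14.4 FPKM in wild type and 43.1 and 25.9 FPKM in labelled knockout, a change of 1.22 (SE 0.33, adjusted p = 0.0125). SREBF2 (GRCh38 chromosome 22, 41833079 to 41907308, plus strand) stood at 148 and 138 against 100.3 and 99.7 FPKM, a change of -0.51 (SE 0.12, adjusted p = 0.00613). STARD4 was lower (-0.68, adjusted p = 0.0263) and INSIG1 did not pass (-0.32, adjusted p = 0.18).

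The calls at day 7 of MVK, MSMO1, EBP, SC5D, ACSS2, ACACA and FADS2, 7 of 13, held under every alternative run. LSS lost its call without each of that day's 4 libraries in turn (0.48 to 0.58) and with median-ratio scaling (0.44), limma without its trend or the replicate block (both 0.53). MVD lost its call without wild-type replicate 2 (-0.30) or either labelled knockout library (-0.42 and -0.43), SREBF1 without wild-type replicate 1 (1.17) or labelled knockout replicate 1 (0.86), SREBF2 without wild-type replicate 1 (-0.47), and SCD (-0.45 and -0.38) and STARD4 (-0.52 and -0.43) without wild-type replicate 1 or labelled knockout replicate 2. Scaled to the sum of nuclear genes, the median of all genes moved to 0.22 and the share of calls that were higher from 52.6% to 68.2%. The sterol and fatty acid medians were then -0.03 and -0.04, with 4 and 3 lower and 2 and 2 higher, HMGCS1 (0.38) and FASN (0.67) passed, and MVD (-0.23) and STARD4 (-0.50) did not. With median-ratio scaling the sterol median was -0.32 and the branch had 9 lower and 0 higher. Mitochondrial transcripts held 8.14% and 8.55% of the sum in wild type at this day and 18.5% and 20.2% in labelled knockout, and their part in these values was not tested beyond that rescaling.

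**Figure D2:**
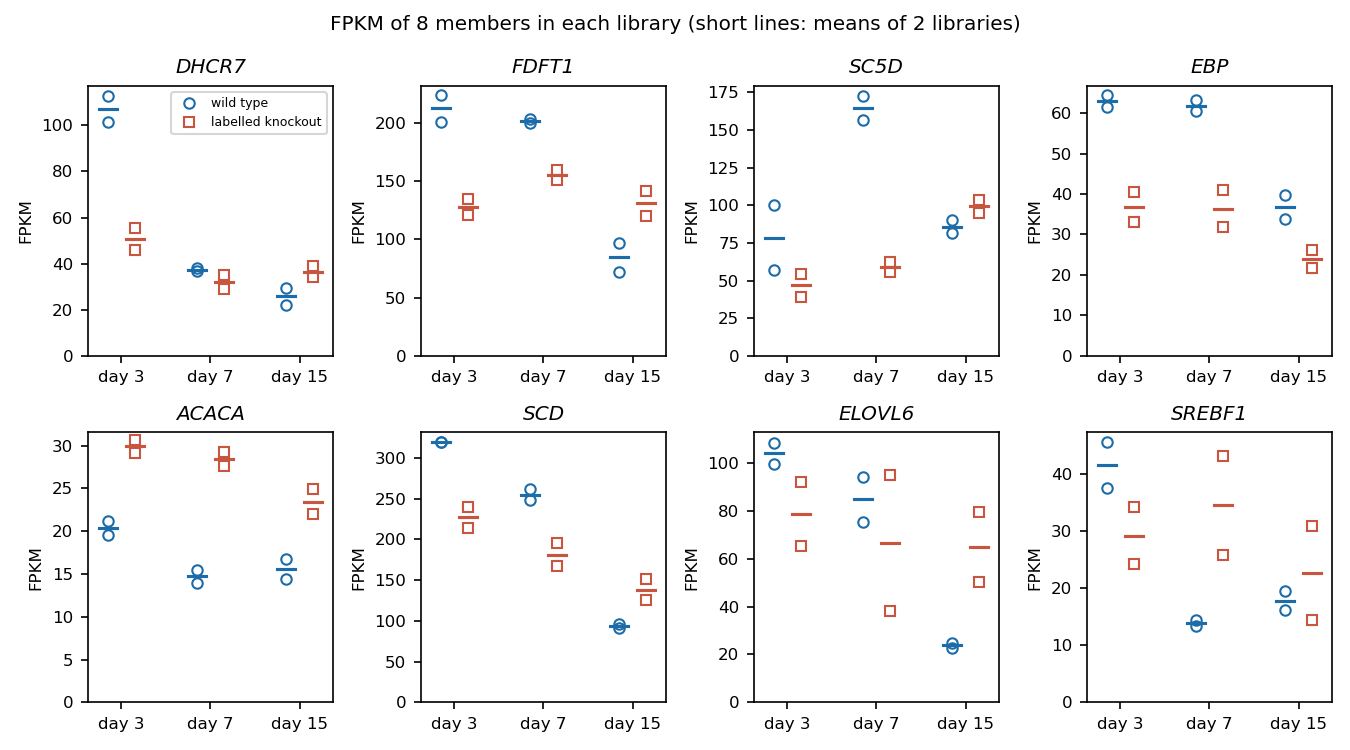
FPKM (vertical axes, from 0) of 8 members at days 3, 7 and 15 (horizontal axes) in each of 12 libraries; circles are wild type, squares labelled knockout, and short lines the means of 2 libraries. SC5D has a wild-type peak at day 7 (172 and 156 FPKM), ACACA lies higher in labelled knockout at each day, and SCD lies lower in labelled knockout at days 3 and 7 and higher at day 15.

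At day 15 sterol genes were called in both directions, with 4 of 18 higher and 3 lower in labelled knockout and a median log2 change of 0.01 (-0.01 with median-ratio scaling, and -0.05 to 0.09 without 1 library). Of the fatty acid genes 4 of 8 were higher and 1 lower, with a median of 0.54, which was 0.27 without labelled knockout replicate 1. The difference between the branches was not tested. Of the regulators and carrier 1 of 4 was higher. Over all genes tested 18.9% were higher and 16.2% lower, with a median of 0.03. The sterol counts lay near these shares in both directions. The sterol genes summed to 622 and 691 FPKM in wild type and 719 and 670.4 FPKM in labelled knockout, with overlap. The fatty acid genes summed to 365 and 383 against 583 and 449.9 FPKM, without overlap.

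The sterol genes that were higher act around and after squalene, a stretch in which EBP was lower and other genes did not pass. FDFT1 stood at 72.2 and 96.98 FPKM in wild type and 142 and 120.2 FPKM in labelled knockout, which is a log2 difference of 0.64 (SE 0.14, adjusted p = 0.00662). HSD17B7 (GRCh38 chromosome 1, 162790702 to 162812817, plus strand) stood at 4.86 and 4.49 against 8.07 and 6.86 FPKM (0.57, adjusted p = 0.0105), DHCR7 at 22.2 and 29.6 against 38.9 and 34.1 FPKM (0.49, adjusted p = 0.0363) and SQLE at 28.98 and 27.6 against 40.4 and 35.9 FPKM (0.42, adjusted p = 0.0117). In each of these the labelled knockout libraries lay above both wild-type libraries, the reverse of their order at day 3. The lower genes were MVD, at 32.5 and 34.5 against 18.5 and 21.04 FPKM (-0.73, adjusted p = 0.00168), FDPS, at 85.4 and 97.7 against 66.1 and 71.2 FPKM (-0.41, adjusted p = 0.014), and EBP, at 33.8 and 39.8 against 26.1 and 21.6 FPKM (-0.61, adjusted p = 0.0132). EBP (GRCh38 chromosome X, 48521158 to 48528716, plus strand) was the 1 member called lower at all 3 days. The other 11 sterol genes, with changes from -0.40 (IDI1) to 0.38 (LSS), did not pass.

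ELOVL6 (GRCh38 chromosome 4, 110045846 to 110199199, minus strand), which lengthens palmitate, had at day 15 the highest change of the 30 members. It stood at 22.8 and 24.7 FPKM in wild type and 79.2 and 50.1 FPKM in labelled knockout, which is a log2 difference of 1.37 (SE 0.35, adjusted p = 0.0126). SCD (GRCh38 chromosome 10, 100347124 to 100364834, plus strand) stood at 95.98 and 90.8 against 151 and 126 FPKM, a change of 0.56 (SE 0.12, adjusted p = 0.00509). FADS1 stood at 34.9 and 37.3 against 48.4 and 59.8 FPKM (0.56, adjusted p = 0.00408) and ACACA at 16.7 and 14.4 against 22.03 and 24.9 FPKM (0.56, adjusted p = 0.00691). ACACA was the 1 member called higher at all 3 days. ACSS2 was lower again, at 20.8 and 24.6 against 12.1 and 14.05 FPKM (-0.75, adjusted p = 0.00861). ACLY (0.52, adjusted p = 0.0873), FADS2 (0.17, adjusted p = 0.284) and FASN (0.15, adjusted p = 0.653) did not pass. The FASN values in labelled knockout, 107 and 53.1 FPKM, straddled those of wild type, 64.8 and 70.9 FPKM, and its change was -0.35 without the higher of them (adjusted p = 0.0258) and 0.65 without the lower. Among the regulators STARD4 stood at 6.28 and 6.48 against 9.46 and 13.1 FPKM (0.72, adjusted p = 0.0248), SREBF1 (0.24) and SREBF2 (-0.03) had overlapping groups, and INSIG1 (0.32, adjusted p = 0.186) did not pass.

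At day 15 the calls of MVD and SCD, 2 of 13, held under every alternative run. Without 1 library the count of sterol genes called ran from 3 (without wild-type replicate 2) to 10 (without labelled knockout replicate 2), and that of fatty acid genes from 2 to 7 without the same libraries. Without wild-type replicate 2 the calls of FDPS (-0.31), SQLE (0.38), HSD17B7 (0.53), ACSS2 (-0.63) and ACACA (0.46) ended, and without wild-type replicate 1 that of FDFT1 (0.43). DHCR7 lost its call without wild-type replicate 1 (0.29) or labelled knockout replicate 1 (0.40), EBP without wild-type replicate 2 (-0.49) or labelled knockout replicate 2 (-0.48), ELOVL6 without either wild-type library (1.32 and 1.43) or labelled knockout replicate 1 (1.05), and STARD4 without either wild-type library (0.70 and 0.74) or labelled knockout replicate 2 (0.50). With that day's 4 libraries fitted alone, 2 sterol and 3 fatty acid genes passed, FADS1 not among them. Scaled to the sum of nuclear genes, the members had the same counts, 9 higher and 4 lower, as with the values as deposited.

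Across the days, 24 of 30 members were called between the genotypes at least once. FDFT1, SQLE, HSD17B7, DHCR7, SCD, FADS1 and STARD4, 7 members, were lower in labelled knockout at day 3 and higher at day 15. MSMO1, EBP, SCD, FADS2, SREBF2 and STARD4, 6 members, were lower at both days 3 and 7. HMGCS1, PMVK, TM7SF2, ACLY, FASN and INSIG1, another 6, were not called at any day. These are counts of calls. Their shares over all genes were not computed, so they cannot be set against a background. Whether the genotype difference itself differed between days is a separate test, given after the time courses.

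In the wild type more members of both branches fell than rose. The fatty acid branch had the lower median after day 7 and over the whole course, a difference between the branches that was not tested. From day 3 to day 7, 9 of 18 sterol genes fell and 2 rose (median log2 change -0.37), and 5 of 8 fatty acid genes fell and 1 rose (median -0.39), where 22.6% of all genes fell and 21.1% rose. The order of these medians reversed without replicate 1 of day 3 (sterol -0.41, fatty acid -0.36) or replicate 2 of day 7 (sterol -0.35, fatty acid -0.33). From day 7 to day 15, 8 sterol genes fell and 1 rose (median -0.07), and 5 fatty acid genes fell and 0 rose (median -1.07), where 26.8% fell and 25.5% rose. From day 3 to day 15, 11 sterol genes fell and 3 rose (median -0.65), and 7 of 8 fatty acid genes fell and 1 rose (median -1.57), where 29.9% fell and 29.2% rose. Without 1 library the sterol median of that comparison ran from -0.84 to -0.45, and the fatty acid median from -1.62 to -1.52. Scaled to the sum of nuclear genes they were -0.40 and -1.32. All 4 regulators and carrier genes fell over the whole course. The sterol branch summed to 1087 and 1058 FPKM, then to 919 and 909 FPKM and, at day 15, to 622 and 691 FPKM. For the fatty acid branch the sums were 1117 and 1138, 810.2 and 801 and 365 and 383 FPKM, each day without overlap with the day before. Over the same days the cell cycle markers summed to 402 and 410.1, 314 and 298 and 222 and 223 FPKM. From day 3 to day 15, 6 of these 8 markers fell and 2 rose. Those that rose were TOP2A (41.1 and 35.5, then 54.5 and 61.4 FPKM) and CDK1 (8.48 and 9.07, then 16.98 and 11.5 FPKM). The part of these markers in the decline was not tested.

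**Figure D3:**
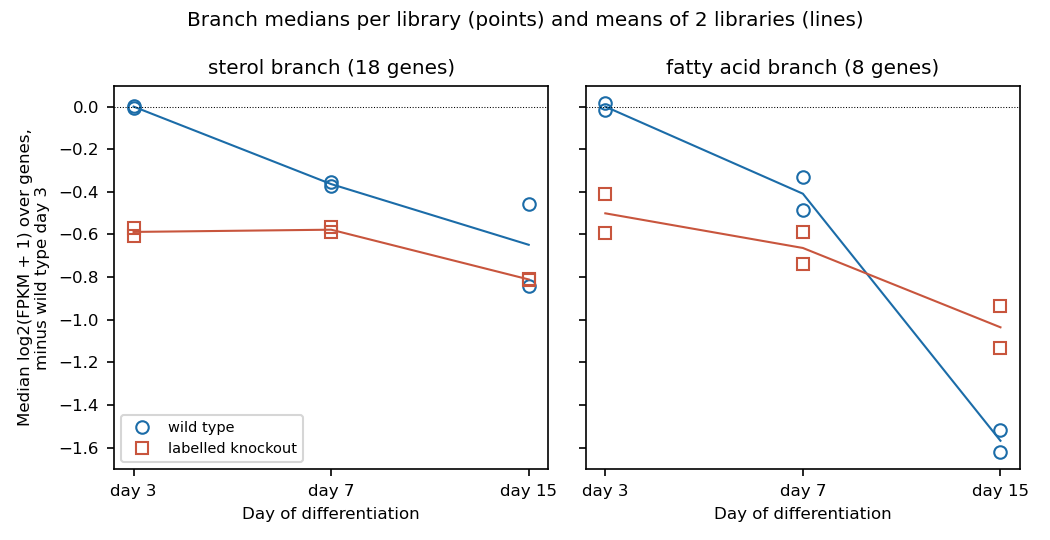
Median over the genes of a branch of log2(FPKM + 1), set to 0 at the wild-type mean of day 3 (vertical axis), by day of differentiation (horizontal axis, days equally spaced); points are the 12 libraries, with circles for wild type and squares for labelled knockout, and lines join means of 2 libraries. In the fatty acid branch wild type ends at -1.62 and -1.52, below labelled knockout at -0.94 and -1.14, while in the sterol branch the 4 libraries of day 15 overlap.

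The wild-type course was not the same for all enzymes. DHCR7 fell from 112 and 101 FPKM at day 3 to 36.7 and 38.01 at day 7 and 22.2 and 29.6 at day 15, a log2 change of -2.02 (SE 0.16, adjusted p = 2.19e-06) over the course, and CYP51A1 fell by the first step, from 55.7 and 60.5 to 27.7 and 28.1 FPKM (-1.03). FDFT1 did not pass to day 7 (201 and 224, then 200.3 and 204 FPKM, -0.07) and fell after it, to 72.2 and 96.98 FPKM (-1.26, SE 0.14, adjusted p = 5.51e-05). HSD17B7 followed the same order, from 13.9 and 13.5 to 4.86 and 4.49 FPKM (-1.38). MVK rose from 7.79 and 9.52 to 24.1 and 24.98 FPKM (1.41, SE 0.22, adjusted p = 0.000543) and then fell to 12.8 and 15.3 FPKM (-0.77), and SC5D rose from 100.2 and 56.8 to 172 and 156 FPKM (1.11) before falling to 81.3 and 89.9 FPKM (-0.93). PMVK, the kinase after MVK, rose late, from 9.13 and 11.4 to 15.98 and 20.7 FPKM (0.78, adjusted p = 0.00246). Of the 19 calls between days 3 and 7, 14 held under every alternative run. Those of ACACA (-0.39 and -0.37), HMGCS1 (-0.44 and -0.43) and STARD4 (-0.59 and -0.57) ended without replicate 1 of day 3 or replicate 2 of day 7, that of IDI1 without the other pair singly (-0.41 and -0.44), and that of SCD without any 1 library (-0.29 to -0.36). From day 7 to day 15, 14 of 16 held, and MVK (-0.65 to -0.79) and DHCR7 (-0.33 to -0.55) lost theirs without either library of day 7 or replicate 1 of day 15.

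Among wild-type fatty acid genes, ACLY fell from 177 and 172 FPKM at day 3 to 38.2 and 39.2 FPKM at day 15 (-2.15, SE 0.22, adjusted p = 1.21e-05) and ELOVL6 from 108 and 99.4 to 22.8 and 24.7 FPKM (-2.08, SE 0.35, adjusted p = 0.000496). SCD fell from 319 and 319.5 through 261 and 248 to 95.98 and 90.8 FPKM, with -1.44 of its -1.76 coming after day 7. FASN fell by day 7, from 183 and 191 to 94.6 and 97.03 FPKM (-0.96), and FADS1 (-1.69) and FADS2 (-1.32) fell over the course. ACSS2 was the exception, since it rose from 12 and 13.6 to 22.3 and 23.1 FPKM (0.78, adjusted p = 0.00503) and stood at 20.8 and 24.6 FPKM at day 15. SREBF1 fell early, from 37.5 and 45.7 to 13.3 and 14.4 FPKM (-1.52), and SREBF2 late, from 148 and 138 to 61.5 and 65.9 FPKM (-1.16). INSIG1, itself known as a target of SREBP, fell from 21.8 and 22.5 to 10.6 and 6.96 FPKM over the course (-1.26). Of 26 members called between days 3 and 15, 20 held under every alternative run, and MVK, FDPS, LSS, TM7SF2, ACACA and SREBF1 did not. MVK lost its call without wild-type replicate 1 of day 3 (0.51) or replicate 2 of day 15 (0.52), FDPS (-0.36 and -0.29) and SREBF1 (-1.04 for each) without replicate 2 of day 3 or 1 of day 15, and LSS without replicate 1 of day 3 (-0.49) or 15 (-0.45). TM7SF2 lost it without any 1 of the 4 libraries (0.40 to 0.46), and ACACA without either library of day 3 (-0.32 and -0.42) or replicate 2 of day 15 (-0.27). Scaled to the sum of nuclear genes, the median of all genes moved from 0.02 to 0.23 for that comparison and from 0.01 to 0.17 between days 7 and 15, and the share of calls that were higher from 49.4% to 62.0% and from 48.7% to 60.1%. On that scale the sterol median between days 7 and 15 turned to 0.12, with 7 lower and 5 higher, as FDPS (0.34), HMGCS1 (0.36), IDI1 (0.43) and NSDHL (0.48) passed. The fatty acid median stayed negative, at -0.88.

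**Figure D4:**
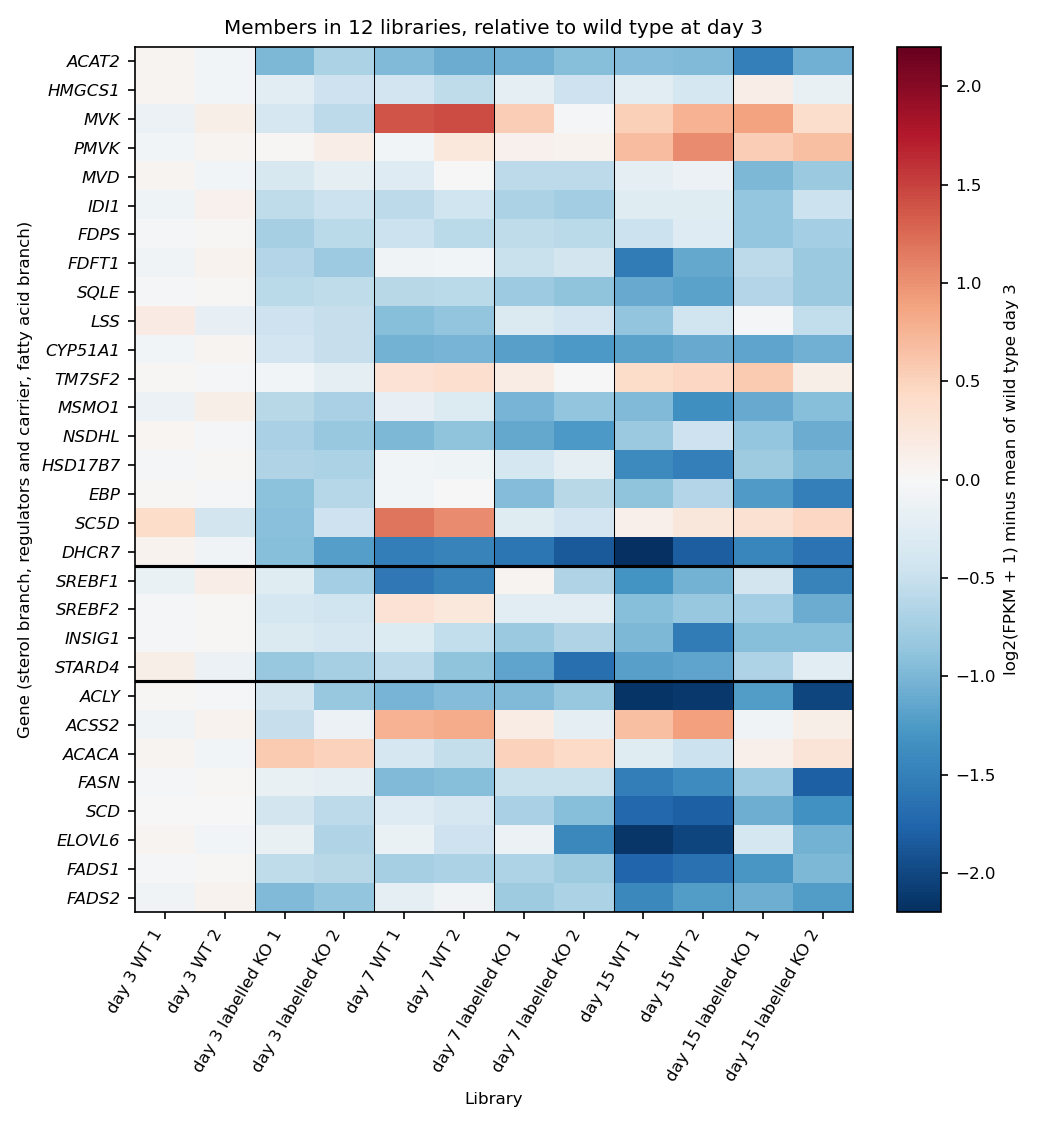
Log2(FPKM + 1) of 30 members (rows, in the order sterol branch, regulators and carrier, fatty acid branch) in 12 libraries (columns, by day and genotype), minus the mean of the 2 wild-type libraries of day 3; red is higher and blue lower. MVK and SC5D are red in wild type at day 7, ACACA is red in labelled knockout at day 3, and ELOVL6, ACLY and SCD are dark blue in wild type at day 15.

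In the libraries labelled knockout fewer members passed between days. From day 3 to day 7 only 3 of 30 passed, MVK higher, from 6.47 and 5.48 to 12.9 and 8.32 FPKM (0.71, adjusted p = 0.0363), and CYP51A1 (-0.77, adjusted p = 0.000429) and DHCR7 (-0.64, adjusted p = 0.0131) lower. Over all genes 17.3% rose and 11.4% fell. The call of MVK ended without either library of day 3 (0.81 and 0.61) or replicate 1 of day 7 (0.42), and that of DHCR7 without replicate 1 of day 3 or replicate 2 of day 7 (-0.51 for each). No fatty acid gene passed limma's test (0 of 8, with 1 of 8 lower at an unadjusted p under 0.05). The medians were -0.01 (0.08 on the scale of nuclear genes and 0.03 without replicate 2 of day 3) and -0.21 (-0.06 without replicate 2 of day 7). From day 7 to day 15, 5 of 8 fatty acid genes fell, ACLY, FASN, SCD, FADS1 and FADS2 (median -0.39), while 2 sterol genes rose, PMVK and SC5D, and 2 fell, HSD17B7 and EBP, where 15.1% of all genes fell and 13.3% rose. STARD4 rose in that interval, from 6.46 and 4.27 to 9.46 and 13.1 FPKM (0.95, adjusted p = 0.00819), and SREBF2 fell (-0.67, adjusted p = 0.00222). Each of these 11 calls ended under at least 1 alternative, and without 1 library 0 to 2 sterol and 0 to 4 fatty acid genes passed, the lowest without labelled knockout replicate 2 of day 7 for the sterol branch and without replicate 1 of that day for the fatty acid branch. From day 3 to day 15, 4 of 8 fatty acid genes fell (ACLY, FASN, SCD and FADS1, median -0.44), and 4 sterol genes fell (MVD, CYP51A1, EBP and DHCR7) and 4 rose (MVK, PMVK, TM7SF2 and SC5D), with 18.8% of all genes lower and 21.5% higher. SREBF2 (-0.49) and INSIG1 (-0.60) fell as well. INSIG1 lost its call without any 1 library (-0.57 to -0.63), PMVK without either library of day 3 (0.45 and 0.58) or replicate 2 of day 15 (0.46), TM7SF2 without replicate 2 of day 3 (0.42) or replicate 1 of day 15 (0.28), EBP without replicate 2 of either day (-0.46 and -0.47), and DHCR7 without replicate 1 of day 3 (-0.32) or replicate 2 of day 15 (-0.36). With the compared groups alone FADS1 (-0.54) and SREBF2 (-0.49) did not pass, and 7 of 14 calls held under every alternative run. SC5D went from 39.3 and 54.6 to 95.1 and 103 FPKM (1.08, SE 0.23, adjusted p = 0.00366) and stood at 62.4 and 55.8 FPKM at day 7, where the wild type had 172 and 156.

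Whether the genotype difference itself changed between neighbouring days was tested as an interaction. Between days 3 and 7 it shifted upward in 6 of 30 members and downward in 0, where 11.3% of all genes shifted upward and 8.9% downward. These were ACAT2 at 0.88 (SE 0.23, adjusted p = 0.0225), FDPS at 0.62, LSS at 1.01, DHCR7 at 0.85, FADS1 at 0.57 and SREBF1 at 1.72. Each of the 6 lost its call in at least 5 of the 8 fits that left out 1 library of these days, and 0 to 2 sterol and 0 fatty acid genes then passed, with 0 sterol genes without wild-type replicate 2 of day 7. From day 7 to day 15 it shifted upward in 12 members and downward in 0, where 16.6% of all genes shifted upward and 15.2% downward. In the sterol branch these 7 were SC5D (1.67, SE 0.32, adjusted p = 0.00356), MVK (1.15), FDFT1 (1.01), MSMO1 (0.83), HSD17B7 (0.79), DHCR7 (0.71) and SQLE (0.66). In the fatty acid branch they were ELOVL6 (1.85, SE 0.50, adjusted p = 0.0175), SCD (1.05, SE 0.17, adjusted p = 0.00134), FADS2 (0.77) and FADS1 (0.58), and of the regulators and carrier STARD4 (1.40, SE 0.30, adjusted p = 0.00618). FDFT1, SQLE, HSD17B7, SC5D, SCD, FADS2 and STARD4, 7 of the 12, held under every alternative run. ELOVL6 lost its call without wild-type replicate 1 of day 7 (1.69) or 15 (1.80) or labelled knockout replicate 1 of day 15 (1.53), and MSMO1 without wild-type replicate 1 of day 7 (0.77). MVK (0.86 to 1.18), DHCR7 (0.51 to 0.74) and FADS1 (0.53 to 0.60) lost theirs without either wild-type library of day 7, labelled knockout replicate 2 of day 7 or wild-type replicate 1 of day 15, and MVK and DHCR7 also without labelled knockout replicate 1 of day 15. Scaled to the sum of nuclear genes, the median of all genes in this interaction moved from -0.01 to -0.17, the share of calls that were upward from 52.2% to 37.7%, and the sterol median from 0.17 (0.02 without labelled knockout replicate 1 of day 15) to -0.02, with 5 sterol genes upward and 1, FDPS, downward (-0.56). The fatty acid median moved from 0.50 to 0.30. At an unadjusted p under 0.05, limma had 1 member shifted downward in each of the interactions. Both use the libraries of day 7.

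Other genes of the pathway were read from lists of SREBP processing, further isoprenoid enzymes, further fatty acid and phospholipid enzymes, and sterol transport. Among 8 genes of SREBP processing, 1 was higher and 2 lower at day 3, 1 higher and 3 lower at day 7, and 3 higher and 0 lower at day 15. For these and the following counts, the shares over all genes were 9.51% higher and 14.1% lower at day 3, 22.1% higher and 19.9% lower at day 7, and 18.9% higher and 16.2% lower at day 15. INSIG2 (GRCh38 chromosome 2, 118088452 to 118110997, plus strand), which like INSIG1 retains SREBP precursors in the endoplasmic reticulum, changed most in this list. It stood at 5.82 and 5.61 FPKM in wild type and 26.2 and 23.8 FPKM in labelled knockout at day 3, at 21.6 and 14.2 against 4.77 and 5.65 FPKM at day 7, and at 8.55 and 6.90 against 12.2 and 19.3 FPKM at day 15. The order of the groups thus reversed from day to day without overlap, with log2 changes of 1.95 (SE 0.24, adjusted p = 0.000337), -1.58 (SE 0.24, adjusted p = 0.000498) and 0.91 (SE 0.24, adjusted p = 0.013). The differences between neighbouring days were -3.53 (adjusted p = 9.76e-05) and 2.49 (adjusted p = 0.000498). SEC24C, a coat protein of vesicles that leave the endoplasmic reticulum, was lower at days 3 (-0.48) and 7 (-0.78). MBTPS1, a protease that cleaves SREBP precursors, was higher at day 7 (0.61), and MBTPS2, which makes the next cut, at day 15 (0.79), when SEC23A, another coat protein, was higher too (0.61).

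Of 11 measured further sterol and isoprenoid genes, 0 were higher and 1 lower at day 3, 3 higher and 1 lower at day 7, and 2 higher and 1 lower at day 15. The higher counts at days 7 and 15 lay near the shares over all genes. TMEM97, a sterol-regulated membrane protein, stood at 21.9 and 24.1 FPKM in wild type and 66.7 and 62.4 FPKM in labelled knockout at day 15 (1.45, SE 0.19, adjusted p = 0.000349). LBR, a sterol reductase of the nuclear envelope, was higher at days 7 (0.79) and 15 (0.97), and C14orf1, a scaffold of the sterol demethylation enzymes, was lower at days 3 (-0.78) and 7 (-0.64). Of the enzymes that make coenzyme Q, COQ2 was higher at day 7 (0.70) and lower at day 15 (-0.66), and PDSS2 was higher at day 7 (0.72). Of 22 measured further fatty acid and phospholipid genes, 1 was higher and 9 lower at day 3, 0 higher and 9 lower at day 7, and 4 higher and 4 lower at day 15. ACACB, the mitochondrial form of acetyl-CoA carboxylase, stood at 2.81 and 4.78 FPKM in wild type and 15.7 and 11.3 FPKM in labelled knockout at day 3 (1.61, SE 0.23, adjusted p = 0.000923). SCD5, a second stearoyl-CoA desaturase, stood at 6.67 and 7.03 against 1.59 and 1.59 FPKM at that day (-1.60, SE 0.14, adjusted p = 5.45e-05). ELOVL1, an elongase of very long chains, was lower at each day (-1.28, -1.06 and -0.86), and SLC25A1, which exports citrate from mitochondria, at days 3 (-0.77) and 7 (-0.81). AGPAT2, an enzyme of phospholipid and triglyceride synthesis, was lowest in this list at day 7 (-1.73), when the elongation genes ELOVL4 (-1.50) and HSD17B12 (-1.22) were lower as well. ACSL1, an acyl-CoA synthetase, was lower at day 7 (-1.16) and higher at day 15 (1.40). Also at day 15, the elongation genes HACD3 (0.54) and ELOVL5 (0.39) were higher, and ME1, a malic enzyme that supplies NADPH (-1.11), and FADS3 (-0.59) were lower.

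Of 14 genes of sterol transport, esterification and LXR signalling, 1 was higher and 3 lower at day 3, 0 higher and 4 lower at day 7, and 2 higher and 3 lower at day 15. Most of these counts lay near the shares over all genes. LIPA, the lysosomal lipase that frees cholesterol from its esters, was lower at day 3 (-1.02) and higher at day 15 (0.69). VLDLR, a lipoprotein receptor, was higher at day 3 (0.68) and lower at days 7 (-1.30) and 15 (-0.56), and NPC1, which moves cholesterol out of lysosomes, was lower at days 3 (-0.58) and 15 (-0.70). Its partner NPC2 was lower at days 7 (-0.79) and 15 (-0.86), the receptor gene LRP8 lower at day 3 (-0.64) and higher at day 15 (0.64), and MYLIP, a ubiquitin ligase for lipoprotein receptors, lower at day 7 (-0.84). The medians of the 4 lists at day 3 were -0.27, -0.11, -0.36 and -0.28, against -0.62 for the sterol branch and -0.01 for all genes. The fatty acid branch had -0.45. At day 15 they were 0.32, -0.04, -0.07 and -0.14, against 0.01 for the sterol branch, 0.54 for the fatty acid branch (0.27 without labelled knockout replicate 1) and 0.03 for all genes. Where a count above is 0, limma had at an unadjusted p under 0.05 1 isoprenoid gene higher at day 3, 2 further fatty acid genes and 0 transport genes higher at day 7, and 0 genes of SREBP processing lower at day 15. No test compares the lists with each other.

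Of the genes named from these lists, the calls of 7 of 12 at day 3, 10 of 14 at day 7 and 7 of 17 at day 15 held under every alternative run, with those of INSIG2 at days 3 and 7, ACACB, SCD5 and TMEM97 among them. INSIG2 at day 15 lost its call without replicate 2 of wild type (0.78) or of labelled knockout (0.60). At day 3 the calls of SEC24C (-0.47 to -0.49) and LRP8 (-0.52 to -0.77) ended without any 1 library, that of NPC1 without wild-type replicate 2 (-0.53) or labelled knockout replicate 1 (-0.55), and that of VLDLR without wild-type replicate 1 (0.58). At day 7 MBTPS1 (0.41 to 0.69) and PDSS2 (0.46 to 0.90) lost theirs without either wild-type library or labelled knockout replicate 1, LBR without replicate 1 of either genotype (0.69 and 0.68), and C14orf1 without wild-type replicate 1 (-0.58) or labelled knockout replicate 2 (-0.43). At day 15 the call of MBTPS2 ended without any 1 library (0.72 to 0.85) and that of SEC23A without either wild-type library or labelled knockout replicate 1 (0.40 to 0.69). Those of COQ2 (-0.59), LBR (0.75) and VLDLR (-0.39) ended without wild-type replicate 1, that of LIPA without wild-type replicate 2 (0.43), that of LRP8 without wild-type replicate 2 (0.42) or labelled knockout replicate 1 (0.46), that of ELOVL5 without replicate 2 of either genotype (0.28 and 0.27), and that of FADS3 without replicate 1 of either (-0.51 and -0.52).

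On the annotation of GENCODE release 29 the 30 members lie on 15 chromosomes. Exons of 4 members share bases with another gene on the same strand and those of 14 with a gene on the other strand, and 5 members (FDPS, CYP51A1, HSD17B7, SCD and FADS2) have named pseudogenes. How reads shared with such genes were counted is not stated by the labels. The values of these members may be less certain than the spread between replicates shows, which was not tested.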

How the data were processed

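RNA of 12 libraries was sequenced on an Illumina HiSeq X10 after Trizol extraction, per the labels' protocols. The authors deposited 1 value per gene symbol and library, on the FPKM scale as judged from the values, since no header names the unit. BWA and the builds GRCh38 and hg38 stand in the submitters' processing notes, and the program that computed the values is not given in the sources used here. Among 863 genes with 1 transcript, 45.5% to 66.7% of low values per library lay within 0.1 of whole fragments, so read depth could not be recovered, is unknown, and no count model or counting interval is given.

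Values were taken as log2(FPKM + 1), 16295 of 17096 genes, those reaching 1 FPKM in 2 or more libraries, were kept, and limma 3.58.1 in R 4.3.3 fitted 6 group means to all 12 libraries with an intensity trend. The resulting 11 contrasts were tested two-sided, with Benjamini-Hochberg adjustment over all genes tested and a threshold of 0.05. Alternatives were median-ratio size factors, scaling to the sum of nuclear genes, a minimum of 5 FPKM or none, 0.1 as the pseudocount, limma without its trend, the compared groups alone, a replicate block and leaving out each library. A crossed replicate block for day 15 was chosen after seeing the data. Members and gene lists were chosen with earlier results of these data known. Genes of the other lists are named when called with the 3 smallest adjusted p in a direction, and members are described throughout. The other lists were read in the genotype comparisons. Positions are those of GENCODE release 29. Some items are not reported here.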

Additional observations from a re-analysis of the deposited data

Results flagged for a closer look

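In all, 18 differences of the genotype difference between neighbouring days passed the threshold among the members, in limma's interaction test with Benjamini-Hochberg adjustment over all genes and 2 libraries a group. Each is the log2 change of labelled knockout against wild type at the later day minus that at the earlier day, and all are positive. Over all genes 11.3% shifted upward and 8.9% downward from day 3 to day 7, and 16.6% and 15.2% from day 7 to day 15. DHCR7 and FADS1 are counted in both intervals, and both intervals use the libraries of day 7. Under every alternative run, 0 of the 6 earlier differences and 7 of the 12 later differences held. From day 3 to day 7 they were FDPS at 0.62 (SE 0.15, adjusted p = 0.0175), ACAT2 at 0.88 (SE 0.23, adjusted p = 0.0225), DHCR7 at 0.85 (SE 0.23, adjusted p = 0.0245), SREBF1 at 1.72 (SE 0.46, adjusted p = 0.0247), LSS at 1.01 (SE 0.27, adjusted p = 0.0259) and FADS1 at 0.57 (SE 0.16, adjusted p = 0.0334).

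From day 7 to day 15 the fatty acid genes were SCD at 1.05 (SE 0.17, adjusted p = 0.00134), FADS2 at 0.77 (SE 0.16, adjusted p = 0.00531), ELOVL6 at 1.85 (SE 0.50, adjusted p = 0.0175) and FADS1 at 0.58 (SE 0.16, adjusted p = 0.0218). Sterol genes were SC5D at 1.67 (SE 0.32, adjusted p = 0.00356), FDFT1 at 1.01 (SE 0.20, adjusted p = 0.00438), SQLE at 0.66 (SE 0.15, adjusted p = 0.00778), MSMO1 at 0.83 (SE 0.21, adjusted p = 0.0133), HSD17B7 at 0.79 (SE 0.20, adjusted p = 0.0133), MVK at 1.15 (SE 0.32, adjusted p = 0.0187) and DHCR7 at 0.71 (SE 0.23, adjusted p = 0.0354). STARD4 stood at 1.40 (SE 0.30, adjusted p = 0.00618).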

How the results depend on the processing

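Member calls between genotypes ended most often when 1 of 2 libraries was left out, which leaves a group with 1 library assumed to vary like the others. Of the calls, 8 of 17 held under every alternative at day 3, 7 of 13 at day 7 and 2 of 13 at day 15. FASN at day 15 reversed without labelled knockout replicate 1, at -0.35 (adjusted p = 0.0258), and was 0.65 without replicate 2. In labelled knockout from day 3 to day 7, median-ratio scaling gave 5 sterol and 1 fatty acid genes for 3 and 0, and the replicate block gave 1 fatty acid gene. In the interaction from day 3 to day 7 the 1 fatty acid gene became 0 with median-ratio scaling or limma without its trend and 3 with the compared groups alone. In labelled knockout from day 7 to day 15, the 5 fatty acid genes became 3 without the trend. With the compared groups alone, day 15 between genotypes gave 3657 genes for 5723, with 2 sterol genes for 7 and 3 fatty acid genes for 5. On the same setting, labelled knockout from day 7 to day 15 gave 2084 genes for 4628, with 1 sterol and 0 fatty acid genes, and from day 3 to day 15 it gave 4 sterol genes for 8. Depth is unknown, so the precision of low values could not be set.

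Leaving out 1 library gave these ranges of calls. Between genotypes there were 1990 to 2503 genes and 2 to 3 fatty acid genes at day 3, 4498 to 5241 genes at day 7, and 3803 to 5524 genes, 3 to 10 sterol and 2 to 7 fatty acid genes at day 15. The interaction from day 3 to day 7 gave 1920 to 2558 genes, 0 to 2 sterol and 0 to 0 fatty acid genes, and that from day 7 to day 15 gave 4 to 7 sterol and 2 to 5 fatty acid genes. Labelled knockout gave 2947 to 3284 genes, 1 to 2 sterol and 0 to 1 fatty acid genes from day 3 to day 7, 2902 to 4897 genes, 0 to 2 sterol and 0 to 4 fatty acid genes from day 7 to day 15, and 5 to 7 sterol genes from day 3 to day 15.

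The replicate block gave 15 members called at day 15 for 13. Same-numbered libraries of the genotypes had deviations that correlated at 0.0374 at day 3, 0.0239 at day 7 and -0.1215 at day 15. Between days the correlations were -0.0348 to 0.0173 in wild type and 0.1029 to 0.2064 in labelled knockout. With 2 libraries a group and no label that gives a number a shared source, the numbers were not taken to pair libraries, and within labelled knockout the block gave 4, 11 and 15 members for 3, 11 and 14. Pairing the day-15 libraries crosswise gave 5632 genes and 13 members.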
